A study of Homo sapiens with 6 samples.

Results

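The genes described here encode the subunits of the proteasome and the chaperones that assemble its base, whose symbols begin with PSMA, PSMB, PSMC or PSMD followed by a number. PSMB8 and PSMB9 were left out of this set, and their values are given separately. RefSeq lists 37 such genes, 33 of them have a named probe on the array, and 31 were measured, among 12187 measured genes of 20046 with a named probe. PSMA8 and PSMB11, known from testis and thymus, were not detected on any array, and PSMA7, PSMC5, PSMD7 and PSMD13 have no named probe in the annotation used. Of the 31, 30 were detected on all 6 arrays. PSMD9 was detected on 4 arrays and on neither array labelled COLO205. The measured genes comprise 6 of the alpha ring, 7 of the beta ring, PSMB10, 5 ATPases and 3 other subunits of the base, 6 subunits of the lid and 3 assembly chaperones of the base.

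The proteasome is the large protease that degrades proteins marked with ubiquitin in the cytosol and nucleus. Its core is a barrel whose outer alpha rings form a gate and whose inner beta rings hold the proteolytic sites. A regulatory particle sits on the end of the barrel: its lid removes ubiquitin, and the ATPases of its base unfold the protein and thread it into the core. The genes of the complex are known to be regulated together, and the transcription factor NFE2L1 raises many of them when proteolysis falls short. Interferon induces catalytic subunits that replace the standard ones in newly built cores.

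HCT116 and COLO205 (Colo205 in the labels) are established lines from human colon cancer, and OVCAR5 is an established line described by the study as ovarian. The cells received vehicle or imetelstat, an oligonucleotide that blocks telomerase, for 2 weeks, and total RNA was hybridised to Illumina HumanHT-12 V4 arrays. By the labels each line and treatment has 1 array, 6 in all. HCT116 was grown in DMEM, COLO205 and OVCAR5 in RPMI1640, so that medium and line cannot be told apart between HCT116 and OVCAR5. The control is called vehicle in the labels, WT in the sample titles, a mismatch oligonucleotide in the methods and untreated in a legend. Which of these it was stays unsettled.

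Signals are on a log2 scale after quantile normalization, which gives all arrays the same distribution, and each gene is represented by its brightest detected probe. Between 15627 and 17276 probes were detected per array. HCT116 arrays and those labelled COLO205 were alike, with a Pearson r of 0.976 to 0.987 across detected probes, against 0.886 to 0.893 between either line and OVCAR5. Of 16 listed colon markers, each HCT116 and COLO205 array detected 5, against 11 and 9 on the vehicle and imetelstat arrays of OVCAR5. CEACAM5, CEACAM6, KRT20 and CDH17 were detected on both OVCAR5 arrays and on no array labelled HCT116 or COLO205. Of 8 ovarian or Muellerian markers, the HCT116 and COLO205 arrays detected 2 to 3 each and the OVCAR5 arrays 4 to 5. At most 2 of 4 leukocyte markers and 1 of 4 fibroblast markers were detected on any array. In COLO205 the raw signal averaged 78.5% as high with imetelstat as with vehicle. These markers do not bear out the label COLO205, so that COLO205 here and below means only the arrays so labelled, and whether they hold a line separate from HCT116 was not tested. The OVCAR5 arrays detected the most colon markers, so that OVCAR5 too means only the arrays so labelled. Whether labels were exchanged was not tested.

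Promoter sequences of the genes on which the results turn are shown first, because proteasome genes are known to be induced through antioxidant response elements and, for the inducible subunits, interferon-responsive elements. The windows come from RefSeq on GRCh38.p14, span 250 bases before to 50 after each start, and exist for 32 of the 37 genes in 38 windows. TGACNNNGC, the core of the antioxidant response element, was searched on both strands and occurred in 23.7% of these windows, against 13.3% of all 35116 promoter windows. CCAAT, another common promoter element, occurred in 44.7% of them and in 34.6% of all windows. The full element TGACTCAGC, which also fits the TGACNNNGC letters, occurred in 0 of the 38 windows and in 0.561% of all. The 4 stretches below hold the TGACNNNGC match, in capitals, in genes of the core and lid whose array values are given further on.
PSMA4 (chr15:78540640-78540688, plus strand): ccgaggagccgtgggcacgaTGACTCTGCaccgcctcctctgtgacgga
PSMB3 (chr17:38752617-38752665, plus strand): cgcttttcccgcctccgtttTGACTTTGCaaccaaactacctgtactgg
PSMD3 (chr17:39980750-39980798, plus strand): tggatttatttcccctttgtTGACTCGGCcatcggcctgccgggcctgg
PSMD12 (chr17:67366714-67366762, minus strand): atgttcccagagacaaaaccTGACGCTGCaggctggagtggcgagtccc

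The core of the interferon-stimulated response element, GAAA followed 2 bases later by a second GAAA, was added to the search after the array values were seen. It occurred on either strand in 7.89% of the windows of the proteasome genes and in 3.57% of all windows. The genes that held it were PSMA4, PSMB4 and PSMB10. TTCNNNGAA, the gamma-activated site, was also added after the values were seen. It occurred in 15.8% of the windows of the proteasome genes and in 7.66% of all windows. The genes that held this site were PSMA2, PSMA8, PSMB5, PSMC4, PSMD2 and PSMD3. PSMB10 and PSMB4 are shown because they had the largest differences between cell lines, with the letters of the GAAA element in capitals. A match is a description of the letters only.
PSMB10 (chr16:67936851-67936891, minus strand): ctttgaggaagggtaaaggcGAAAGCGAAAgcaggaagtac
PSMB4 (chr1:151399485-151399534, plus strand): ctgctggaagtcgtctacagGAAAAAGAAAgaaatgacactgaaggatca

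In HCT116, the proteasome genes were more often lower than higher with imetelstat. The log2 ratio of imetelstat to vehicle was below 0 in 21 of 31 genes, against 49.0% of all genes detected in HCT116, and above 0 in 9, against 50.8%. Its median was -0.11, and that over all genes 0.01. At least 1.2-fold lower were 11 of the 31 (35.5%), against 13.0% of the 11010 genes detected in HCT116 and 12.5% of the 1076 genes of like signal, whose mean signal lay within the interquartile range of the proteasome genes. At least 1.2-fold higher were 2 (6.45%), against 14.1% of all genes and 15.7% of those of like signal. No proteasome gene differed 2-fold, against 0.736% of all genes lower and 0.0908% higher by that size. Each line has 1 array per treatment, so these are sizes without a replicate check, and no p-value within a line can be given. When the arrays were scaled to a common median instead, 7 of the 31 genes were at least 1.2-fold lower, against 13.5% of all genes.

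Among the subgroups with more than 1 measured gene, the alpha ring had the lowest median in HCT116. Of its 6 measured genes, 5 were lower, 4 of them by at least 1.2-fold, and PSMA1 had a ratio of 0.00. Another PSMA1 probe, detected on 6 arrays, gave -0.22 in HCT116 and 0.41 in COLO205. A further one, detected on 1 array, gave 0.04 in HCT116. The median of the alpha ring was -0.42. Here and below, the signal with vehicle is given first, against that with imetelstat. PSMA2 was the lowest of the ring in HCT116, with a signal of 8.48 against 8.02 in that line, 8.20 against 8.55 in COLO205 and 8.81 against 8.53 in OVCAR5. Its ratio was therefore below 0 in HCT116 and OVCAR5, at -0.47 and -0.28, and 0.34 in COLO205 under quantile normalization. PSMA6, which stood at 13.08 against 12.64 in HCT116, 12.51 against 12.83 in COLO205 and 13.00 against 13.13 in OVCAR5, was lower with imetelstat in HCT116 alone, and its COLO205 ratio turned to -0.16 with median scaling and -0.21 without scaling. Its second probe gave ratios of -0.58, 0.22 and 0.03 in HCT116, COLO205 and OVCAR5.

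PSMA3 and PSMA5 were lower with imetelstat in all 3 lines. The signal of PSMA3 stood at 11.50 against 11.06 in HCT116, 11.19 against 11.10 in COLO205 and 11.47 against 11.26 in OVCAR5. Its ratios were -0.44, -0.09 and -0.21, and its second probe gave -0.42, -0.04 and -0.12. PSMA5 stood at 12.63 against 12.23 in HCT116, 12.30 against 12.17 in COLO205 and 12.21 against 12.13 in OVCAR5. Under quantile normalization the difference was largest in HCT116 for both genes. With median scaling it was largest in COLO205, at -0.53 for PSMA3 and -0.58 for PSMA5, against -0.44 and -0.34 in HCT116. PSMA4 stood at 12.37 against 12.12 in HCT116, 12.41 against 12.09 in COLO205 and 11.83 against 12.28 in OVCAR5, so that the imetelstat array was the lower one in HCT116 and COLO205 and the higher one in OVCAR5. The second probe of PSMA4 disagreed in HCT116 and OVCAR5, with ratios of 0.06, -0.66 and -0.03 in HCT116, COLO205 and OVCAR5.

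The beta ring holds the 3 standard catalytic subunits, and their ratios differed in sign. PSMB5, which has the chymotrypsin-like site, stood at 11.53 against 11.66 in HCT116, 11.52 against 11.91 in COLO205 and 11.78 against 11.77 in OVCAR5. PSMB6, with the caspase-like site, stood at 12.94 against 12.67 in HCT116, 12.92 against 12.67 in COLO205 and 12.72 against 12.76 in OVCAR5. PSMB7, with the trypsin-like site, stood at 12.47 against 12.45 in HCT116, 12.47 against 12.58 in COLO205 and 12.09 against 12.08 in OVCAR5. Under quantile normalization the ratios of PSMB5 in COLO205 (0.39) and of PSMB6 in HCT116 (-0.27) were at least 1.2-fold, and no other ratio of these 3 genes was. With median scaling the COLO205 ratios of PSMB5, PSMB6 and PSMB7 were -0.04, -0.72 and -0.34, and that of PSMB5 was -0.09 without scaling. Over the whole beta ring in HCT116, 6 of 7 genes were lower, 2 by at least 1.2-fold, with a median of -0.10. Core genes outside the catalytic set also parted: PSMB1 stood at 13.40 against 13.13 in HCT116, 13.10 against 13.52 in COLO205 and 12.87 against 12.98 in OVCAR5. PSMB3 stood at 12.64 against 12.54 in HCT116 and 12.98 against 12.54 in COLO205, and stood at 13.08 on both OVCAR5 arrays.

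Under quantile normalization the lowest ratio of any proteasome gene was that of PSMB10, the interferon-inducible trypsin-like subunit that replaces PSMB7. Its signal stood at 11.93 against 11.03 in HCT116, 10.85 against 10.91 in COLO205 and 12.71 against 12.65 in OVCAR5. The HCT116 ratio of -0.90 put the imetelstat array at 53.5% of vehicle, while the ratios in COLO205 (0.06) and OVCAR5 (-0.06) were near 0. With median scaling the COLO205 ratio of PSMB10 was -0.36, and without scaling that of PSMB3 in COLO205 was -0.93. The HCT116 vehicle array was the high one, and the imetelstat array lay near both arrays labelled COLO205.

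The other inducible parts of the complex were measured beside PSMB10. PSMB9, which replaces PSMB6, stood at 10.25 against 8.40 in HCT116, 7.69 against 7.41 in COLO205 and 9.89 against 9.98 in OVCAR5. Its HCT116 ratio was -1.85, and -1.10 by a second probe that was detected on 3 arrays. PSMB8, which replaces PSMB5, was not detected on any array of HCT116 or COLO205 and was at 10.73 and 10.58 in OVCAR5. The interferon-inducible cap that opens the gate of the core is built from PSME1 and PSME2. PSME1 stood at 12.32 against 11.83 in HCT116, 11.76 against 11.30 in COLO205 and 13.35 against 13.06 in OVCAR5, so that it was lower with imetelstat in each line, whereas a second probe, detected on 4 arrays, gave ratios of -0.06, 0.24 and 0.07. The ratio of PSME2 was -0.56 in HCT116 and -0.25 in COLO205, against 0.10 in OVCAR5. Their part in the PSMB10 value was not tested.

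**Figure D1:**
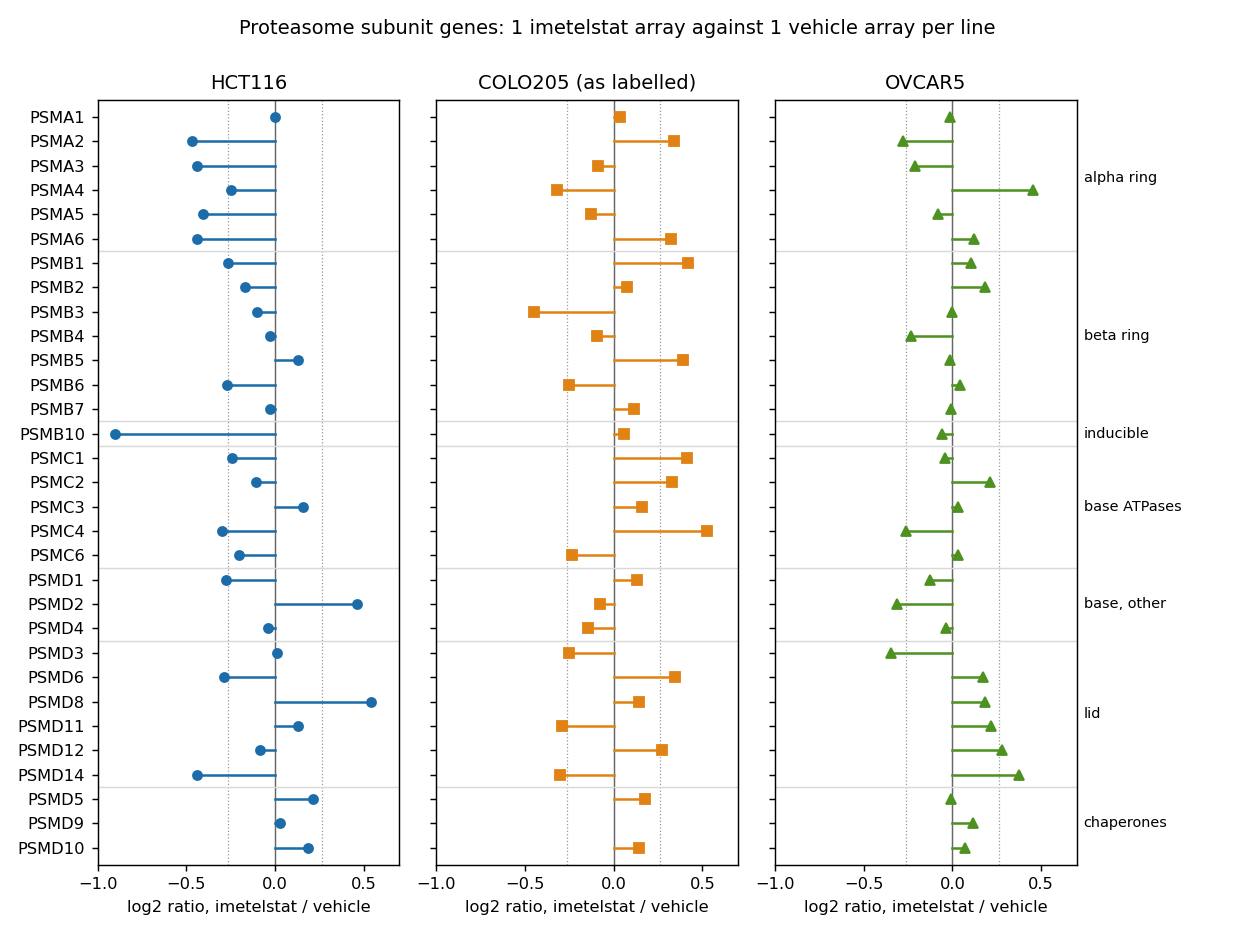
Log2 ratio of imetelstat to vehicle (x axis) for each measured proteasome gene (y axis, grouped by its place in the complex) in the 3 lines, 1 array per treatment, without error bars because there are no replicates. In HCT116 21 of 31 points lie below 0, with PSMB10 the lowest at -0.90 and PSMD8 the highest at 0.54, and in COLO205 the median of the points is 0.09, or -0.35 when arrays are scaled to a common median. Dotted lines mark 1.2-fold.

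Beyond the core, the regulatory particle in HCT116 was mixed. Of the 8 base genes 6 were lower, with a median of -0.16, and of the 6 lid genes 3 were lower, with a median of -0.03. All 3 assembly chaperones of the base were higher, with a median of 0.19 and none at 1.2-fold. PSMD14, the lid enzyme that removes ubiquitin chains from substrates, stood at 11.12 against 10.68 in HCT116, 10.96 against 10.66 in COLO205 and 10.11 against 10.49 in OVCAR5. Its imetelstat array was thus the lower one in HCT116 and COLO205 and the higher one in OVCAR5, with ratios of -0.44, -0.30 and 0.38.

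The 3 highest ratios in HCT116 were those of PSMD8, PSMD2 and PSMD5. PSMD8, a structural subunit of the lid, stood at 9.04 against 9.58 in HCT116, 9.48 against 9.62 in COLO205 and 9.13 against 9.31 in OVCAR5. The imetelstat array of HCT116 was at 145% of vehicle, and under quantile normalization the ratio was above 0 in all 3 lines, at 0.54, 0.14 and 0.18. PSMD2, a base scaffold on which ubiquitin receptors dock, stood at 10.49 against 10.95 in HCT116, 10.93 against 10.85 in COLO205 and 11.09 against 10.78 in OVCAR5. Its ratio was 0.46 in HCT116 and -0.31 in OVCAR5. PSMD5, an assembly chaperone, stood at 7.88 against 8.10 in HCT116, 8.19 against 8.36 in COLO205 and 7.89 against 7.88 in OVCAR5. It was among the dimmer genes of the set, and since background was not subtracted, differences of dim genes are understated.

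In COLO205 the direction of the set depended on the scaling of the arrays. Under quantile normalization 18 of 30 genes were higher with imetelstat and 12 lower, against 48.9% and 51.1% of all genes, with a median of 0.09, whereas the median was -0.35 with scaling to a common median and -0.40 without scaling. The medians of all genes under those settings were -0.26 and -0.31, and -0.43 and -0.48 for genes of like signal, so that the proteasome genes lay 0.10 above the median of all genes under quantile normalization and 0.09 below it under the others. They lay above the median of genes of like signal under all 3, by 0.10, 0.09 and 0.09. At least 1.2-fold higher were 9 of 30 (30.0%), against 15.7% of all genes, and at least 1.2-fold lower were 4 (13.3%), against 16.8%. None was 2-fold lower or higher, against 0.163% and 0.134% of all genes. With median scaling none was at least 1.2-fold higher and 19 were at least 1.2-fold lower, against 3.02% and 50.1% of all genes.

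Among the subgroups in COLO205, the ATPases of the base had the highest median under quantile normalization, 0.33, with 4 of 5 higher and 3 by at least 1.2-fold. PSMC4 stood at 9.87 against 9.57 in HCT116, 9.75 against 10.27 in COLO205 and 9.92 against 9.65 in OVCAR5, and 0.53 was the highest ratio of any proteasome gene in COLO205. Its other probes gave 0.40 and 0.03 in that line. PSMC1 stood at 12.66 against 12.42 in HCT116, 12.51 against 12.93 in COLO205 and 12.58 against 12.54 in OVCAR5, and its second probe gave 0.24 in COLO205. With median scaling the COLO205 ratio of PSMC1 was -0.07, and without scaling it was -0.11. The lowest COLO205 ratios were those of PSMB3 (-0.45), PSMA4 (-0.32) and PSMD14 (-0.30).

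In OVCAR5 the set was balanced. The ratio was below 0 in 15 of 31 genes and above 0 in 15, against 50.8% and 49.1% of all genes, with a median of 0.00, and the SD of the ratios was 0.20, against 0.26 over all genes. At least 1.2-fold lower were 4 genes (12.9%), against 12.6% of all genes, and at least 1.2-fold higher were 3 (9.68%), against 12.3%. None differed 2-fold, against 0.342% of all genes lower and 0.256% higher. The lid had the highest median of the subgroups, 0.20, with 5 of 6 genes higher and PSMD3 the exception. PSMD12, a lid subunit, stood at 10.96 against 10.88 in HCT116, 10.85 against 11.12 in COLO205 and 10.13 against 10.41 in OVCAR5. PSMD3, another lid subunit, stood at 8.15 against 8.17 in HCT116, 8.28 against 8.03 in COLO205 and 8.54 against 8.20 in OVCAR5. Its OVCAR5 ratio of -0.35 was the lowest of the set in that line, and that of PSMA4, 0.45, the highest.

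**Figure D2:**
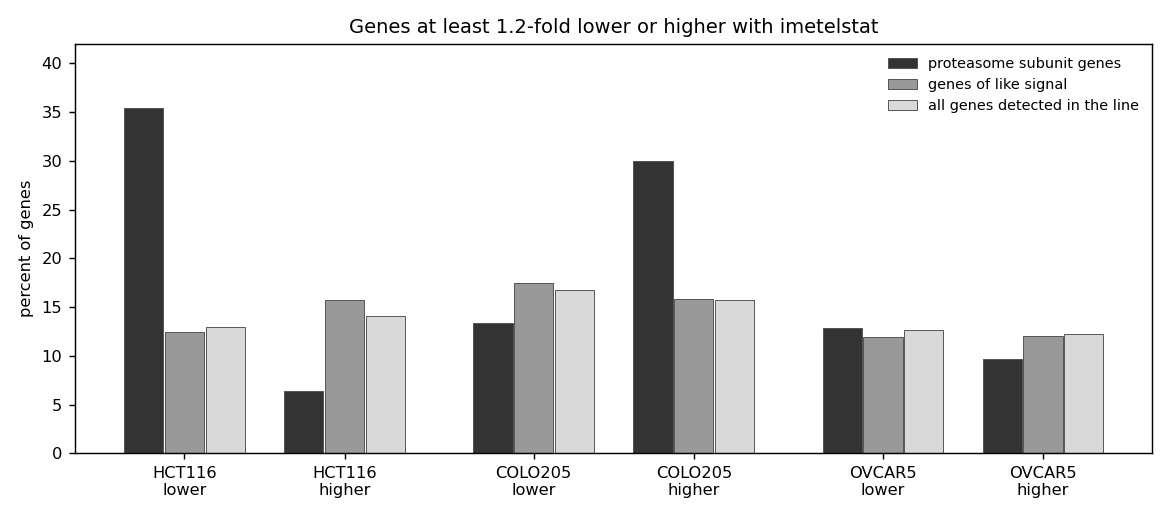
Share in percent (y axis) of the measured proteasome genes, of all genes and of genes of like signal that were at least 1.2-fold lower or higher with imetelstat in each line under quantile normalization. In HCT116 35.5% of the proteasome genes were lower against 13.0% of all genes, and in OVCAR5 12.9% against 12.6%. The COLO205 shares of 13.3% lower and 30.0% higher do not hold with median scaling, under which none was higher.

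Across the lines, the fit of imetelstat against vehicle with cell line as a block called no proteasome gene. By limma with Benjamini-Hochberg adjustment, 0 of 31 proteasome genes and 0 of 12187 genes were called at an adjusted p of 0.05, and at an unadjusted p of 0.05 the counts were 0 and 329 (2.70% of all genes). A plain paired test also called 0 proteasome genes. The mean log2 changes ranged from -0.30 to 0.29. PSMD8 had the highest mean, 0.29 (SE 0.13, n = 3 lines), and PSMB10 the lowest. Of the 30 genes detected in all 3 lines, PSMA3, PSMA5, PSMB4 and PSMD4 were lower in each line, 4 in all, against 10.5% of 9273 genes, and PSMC3, PSMD8 and PSMD10 were higher in each, 3 in all, against 10.8%. The other 23 had signs that differed between lines or a ratio of 0 in a line. With median scaling, an alternative chosen for these counts after seeing the data, 8 genes were lower in each line, against 21.5% of all genes, and none was higher in each, against 2.46%. The COLO205 ratios of PSMC3, PSMD8 and PSMD10 then stood below 0, at -0.27, -0.22 and -0.28, and PSMB4 was no longer among the 8.

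Each of these 7 genes differed by less than 1.2-fold in at least 1 line. PSMB4, a beta subunit without a proteolytic site, stood at 11.75 against 11.72 in HCT116, 11.98 against 11.89 in COLO205 and 10.84 against 10.60 in OVCAR5. PSMD10, the chaperone also called gankyrin, stood at 10.67 against 10.86 in HCT116, 10.82 against 10.96 in COLO205 and 10.00 against 10.07 in OVCAR5. The 2 further probes of PSMD10 gave COLO205 ratios of -0.37 and -0.16, opposite to the brightest. The further probes of PSMD4 gave ratios of 0.26 and 0.18 in OVCAR5 and 0.08 and -0.03 in COLO205, against -0.03 and -0.15 by the brightest. Among the 10 genes with more than 1 detected probe, the median difference in ratio between probes was 0.064 in HCT116, 0.148 in COLO205 and 0.153 in OVCAR5.

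**Figure D3:**
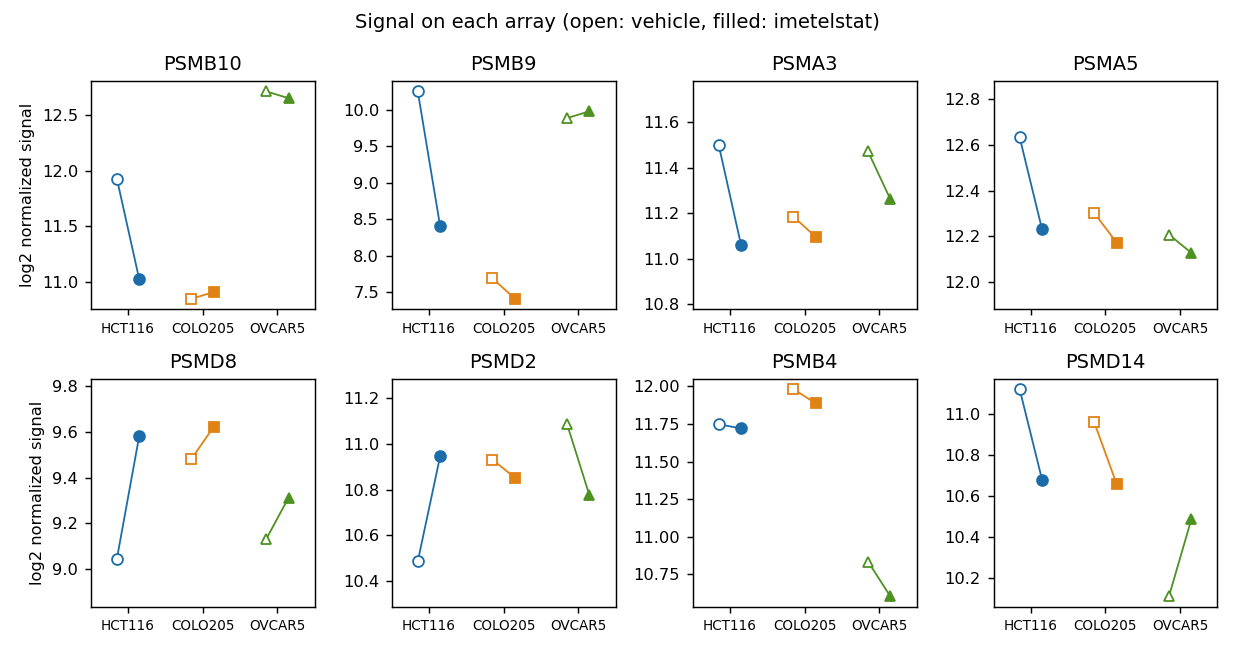
Log2 quantile-normalized signal (y axis, a separate range in each panel) of 7 proteasome genes and of PSMB9 on the 6 arrays (x axis, cell line), with open points for vehicle, filled points for imetelstat and a line that joins the 2 arrays of a line. PSMB10 stands at 11.93 on the HCT116 vehicle array, between 10.85 and 11.03 on the HCT116 imetelstat and both COLO205 arrays, and at 12.71 and 12.65 in OVCAR5.

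The levels of the proteasome genes were then compared between the lines. With treatment as a covariate, the 2 arrays of OVCAR5 were compared with the 2 of each other line. These arrays differ in treatment and are not replicate cultures of 1 condition, and the p-values measure the spread between these arrays only. Against HCT116, 5 of 31 proteasome genes were lower in OVCAR5 (limma, adjusted p of 0.05), against 21.7% of all genes, and 2 were higher, against 19.3%. Against COLO205, 8 were lower, against 22.2% of all genes, and 2 were higher, against 19.6%. Between COLO205 and HCT116 no proteasome gene was called by limma at that adjusted p, against 0.730% of all genes lower and 0.279% higher, and 1 had an unadjusted p under 0.05. In both directions together, 22.6% of the proteasome genes were called against HCT116 and 32.3% against COLO205, beside 41.0% and 41.9% of all genes. With median scaling the calls against HCT116 came to 3 lower and 1 higher, and those against COLO205 to 2 lower and 3 higher. The shares of all genes above are those under quantile normalization, and none was taken with median scaling. Whether the change in calls is particular to the proteasome genes was therefore not tested.

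PSMB10 was higher in OVCAR5 than in both other lines. The difference was 1.2 (SE 0.22) from HCT116, or 2.30-fold, with an adjusted p of 0.00141 by limma, and 1.80 (SE 0.22) from COLO205, or 3.48-fold, with an adjusted p of 9.73e-05 by limma. PSMB8, PSME1 and PSME2 of the inducible set were higher in OVCAR5 as well. By its brightest probe PSMB8 was at least 12.7-fold higher than in HCT116 and at least 12.2-fold higher than in COLO205. These folds take the lowest detected signal where a line did not detect it. Other PSMB8 probes were dimmer in OVCAR5, at 9.89 and 9.77 and at 9.82 and 9.35, and another was detected on no array. PSME1 was higher by 1.13 (SE 0.15) and 1.68 (SE 0.15), with adjusted p of 0.000176 and 1.09e-05 by limma. PSMB9 was 2.38 (SE 0.35) higher in OVCAR5 than in COLO205, and its difference from HCT116, 0.61 (SE 0.35), had an adjusted p of 0.199 by limma. The second PSMB9 probe stood at 7.83 and 7.59 in OVCAR5, 7.88 and 6.78 in HCT116 and 6.99 and 6.70 in COLO205.

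PSMB4 was the lowest of the set in OVCAR5 relative to the other lines. It was 1.02 (SE 0.15) below HCT116 on the log2 scale, or 2.02-fold lower, with an adjusted p of 0.000355 by limma, and 2.32-fold lower than in COLO205, with an adjusted p of 0.000102. All 4 arrays of HCT116 and COLO205 lay between 11.72 and 11.98, and both OVCAR5 arrays lay below 11. These calls and those of PSMB10 held under all 11 alternatives run on the line differences. Each of the genes has 1 probe, detected on all 6 arrays, so the detection filters and probe choices among these alternatives could not change its values. PSMD10, PSMD12 and PSMD4, the last a ubiquitin receptor of the base, were also lower than in both lines. Their log2 differences from HCT116 were -0.73, -0.65 and -0.56 and from COLO205 -0.85, -0.72 and -0.53, and their adjusted p by limma ran from 0.000945 to 0.0145. Of these 6 calls, that of PSMD12 against HCT116 held under all 11 alternatives and the other 5 were lost under 1 to 3. PSMD12 likewise has 1 detected probe, so filters and probe choices could not change its values either.

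Called against 1 line alone were PSMD14, with a log2 difference of -0.60 from HCT116, PSMB3, at 0.49 above HCT116, PSMC6, at 0.49 above COLO205, and PSMB7, PSMC2, PSMC3 and PSMD1, with differences of -0.44 to -0.49 from COLO205. Their adjusted p by limma lay between 0.0249 and 0.0348, and each call was lost under 3 or 4 of the 11 alternatives. A gene's contrast with HCT116 differs from that with COLO205 by its difference between COLO205 and HCT116 in the same fit. For these genes that log2 difference, COLO205 minus HCT116, ran from -0.26 (PSMC6) to 0.19 (PSMD1). Its adjusted p by limma ran from 0.593 (PSMC6) to 0.911 (PSMB7), and none was called. With so few arrays, the lack of a call does not show that the contrasts were equal.

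**Figure D4:**
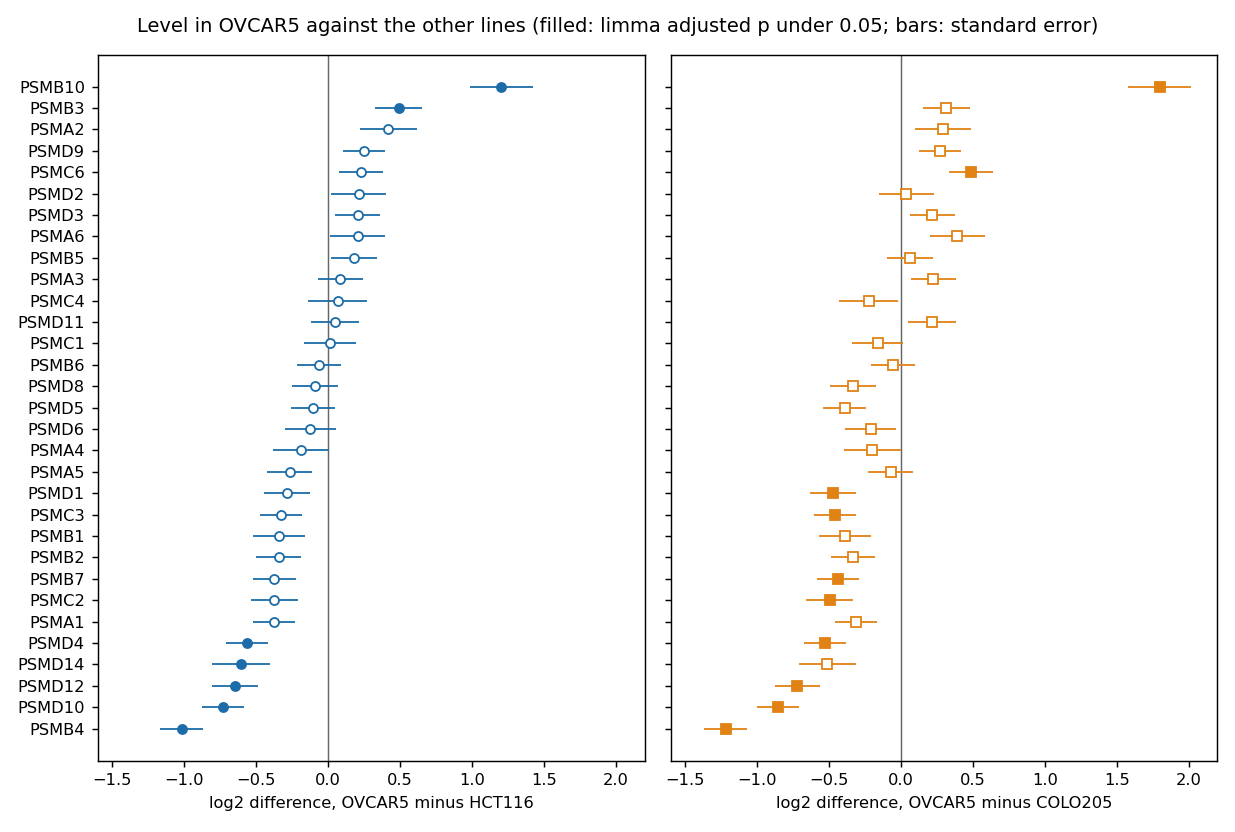
Log2 difference (x axis) between OVCAR5 and HCT116 and between OVCAR5 and COLO205 for the measured proteasome genes, each from 2 arrays per line with treatment as a covariate, with filled points for an adjusted p under 0.05 and bars for the standard error of limma's fit. PSMB10 lies highest, at 1.2 and 1.8, and PSMB4 lowest, at -1.02 and -1.22.

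Other genes of the ubiquitin and proteasome pathway were taken from a list of 39, of which 32 were measured. Across lines, limma called 0 of them for imetelstat against vehicle at an adjusted p of 0.05, and 3, PSME1, PSMB9 and NFE2L2, had an unadjusted p under 0.05, as did 2.70% of all genes. In HCT116 20 of 31 were lower, against 49.0% of all genes, and 9 were lower by at least 1.2-fold, against 13.0%, with a median of -0.11. OVCAR5 had 15 of 32 lower, against 50.8% of all genes, at a median of 0.02. The COLO205 median was 0.03 with 14 of 31 lower under quantile normalization, against 51.1% of all genes. All 5 assembly factors of the core were lower in HCT116, with a median of -0.24, and 4 of them were higher in COLO205 under quantile normalization. The lowest was PSMG4, a chaperone of the alpha ring, at 9.94 against 9.38 in HCT116, 9.45 against 9.78 in COLO205 and 8.90 against 9.06 in OVCAR5.

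The transcription factors that act on antioxidant response elements parted. NFE2L2 stood at 10.27 against 9.78 in HCT116, 10.27 against 9.61 in COLO205 and 10.57 against 10.35 in OVCAR5, lower with imetelstat in each line. NFE2L1, the factor tied to proteasome gene induction, had a ratio of 0.07 in HCT116 and 0.28 in COLO205, and -0.02 in OVCAR5. Proteasome genes with a TGACNNNGC match had median ratios of -0.09 in HCT116 and 0.13 in COLO205, and 0.00 in OVCAR5, and those with a promoter but no match had -0.17, 0.07 and 0.03. The segregase genes VCP and NPLOC4, which extract ubiquitinated proteins for the proteasome, had ratios of 0.27 and 0.15 in HCT116 and 0.15 and 0.10 in OVCAR5, and in COLO205 0.25 and 0.49 under quantile normalization. UBA1, which activates ubiquitin, had 0.35, -0.09 and 0.11, and its 2 other probes gave -0.43 and -0.24 in OVCAR5.

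The proteins that attach to the regulatory particle differed by line as well. UCHL5, a deubiquitinase, stood at 10.33 against 10.03 in HCT116, 9.92 against 9.71 in COLO205 and 8.64 against 8.95 in OVCAR5. ADRM1, the receptor that holds UCHL5, had ratios of -0.06, 0.42 and 0.13 in HCT116, COLO205 and OVCAR5, and 0.36, 0.24 and 0.14 by its second probe. PAAF1, which binds the ATPases, had 0.06, -0.37 and -0.42, and the shuttle proteins UBQLN4 and RAD23B had -0.39 and 0.35 in OVCAR5. Between lines, limma called 9 of the 32 pathway genes lower and 7 higher in OVCAR5 than in HCT116 at an adjusted p of 0.05, against 21.7% and 19.3% of all genes. Against COLO205 it called 9 lower and 6 higher, beside 22.2% and 19.6% of all genes. UCHL5 was lower than in both, with log2 differences of -1.39 (SE 0.18) and -1.02 (SE 0.18) and adjusted p of 0.000144 and 0.00100 by limma.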

How the data were processed

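The signal intensities the authors deposited are linear bead averages from GenomeStudio, neither normalized nor background-subtracted, so that the lowest was 74.7. The detection p-values they deposited set each probe against negative control beads. The authors' processed intensities, made by quantile normalization with lumi (version not given in the sources used here), served as an alternative. The log2 signals of 47231 probes were quantile-normalized with limma 3.58.1 in R 4.3.3. A probe with a detection p under 0.01 on at least 1 array was kept, and the brightest stood for its gene. Of the probes, 30113 have 1 symbol in the platform annotation, 8 several and 17110 none, and 30074 symbols were updated by gene identifier. PSMC3IP and PSMD6-AS2 begin with the same letters but encode no subunit and were left out.

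Within a line 1 array was set against 1, so sizes alone are given, beside all genes detected in that line. Across lines, lmFit and eBayes fitted treatment and cell line on all 12187 genes, two-sided with Benjamini-Hochberg adjustment, and the contrasts between lines came from the same fit. The number of arrays limits the precision. The code was tested on simulated data. Genes with 6 values were the 3 highest and lowest ratios per line, genes of 1 sign in all lines, the largest line differences and the catalytic subunits. Of the pathway list, the 2 highest and lowest per line and those past 2-fold were named. PSMB8, PSME2, NFE2L1, the interferon element and the gamma-activated site fall outside these rules and were picked with their values in view. The genes and lists were chosen with earlier results of these data known. Alternatives were other scalings, background correction, detection filters and probe choices, leaving out each line, and other forms of the fit. Promoters were read and figures drawn with Python 3.11.15 and matplotlib 3.10.9. The files name no genome build.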

Additional observations from a re-analysis of the deposited data

Results flagged for a closer look

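For 8 of the 30 proteasome genes detected in every line (26.7%), imetelstat and vehicle arrays differed by at least 1.2-fold in opposite directions in different lines, against 12.4% of 9273 genes. These counts are under quantile normalization. With median scaling, run after seeing the data, the count was 3 (PSMA4, PSMD2 and PSMD14), against 17.2% of all genes, and without scaling it was 4, against 17.6%. With 1 array per line and treatment, none of these differences between lines was tested.

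In the alpha ring, the ratio of PSMA2 in HCT116 lay -0.81 from that in COLO205, and its COLO205 ratio lay 0.62 above that in OVCAR5. The ratio of PSMA6 in HCT116 lay -0.76 from that in COLO205. The PSMA4 ratio in COLO205 lay -0.78 from that in OVCAR5, where its second probe gave a ratio of -0.03 and the brightest one 0.45. In the beta ring PSMB1 differed by -0.69 between HCT116 and COLO205.

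In the base, PSMC4, an ATPase, differed by -0.82 between HCT116 and COLO205 and by 0.79 between COLO205 and OVCAR5, and PSMD2 differed by 0.77 between HCT116 and OVCAR5. In the lid, PSMD6 had ratios of -0.29 in HCT116 and 0.35 in COLO205, a difference of -0.63. Its second probe gave -0.22, less than 1.2-fold, in HCT116 and 0.37 in COLO205. The ratio of PSMD14 differed by -0.82 between HCT116 and OVCAR5 and by -0.68 between COLO205 and OVCAR5. The differences that involve COLO205 are those under quantile normalization, since scaling to a common median moved the median COLO205 ratio of all genes to -0.26.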

How the results depend on the processing

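In COLO205 the median ratio of the proteasome genes was -0.35 with median scaling and -0.40 without scaling. At least 1.2-fold lower were 19 and 20 genes, against 50.1% and 57.1% of all genes. By that size 0 were higher in both, against 3.02% and 2.03% of all genes. In HCT116 both settings left 7 genes at least 1.2-fold lower, against 13.5% and 13.9% of all genes. Of 18 COLO205 ratios above 0, 15 turned below 0 with median scaling and 16 without scaling. Among those of at least 1.2-fold, PSMC2 and PSMD6 turned under both settings, and the others that turned were, with median scaling, PSMA6 -0.16, PSMB5 -0.044, PSMC1 -0.068 and PSMD12 -0.18, and without scaling PSMA6 -0.21, PSMB1 -0.036, PSMB5 -0.091, PSMC1 -0.11 and PSMD12 -0.22. By the dimmest probe PSMA4 in OVCAR5 was -0.026. Between OVCAR5 and HCT116, limma called 3 genes lower and 1 higher with median scaling and also without scaling, and 1 higher with normexp. Between OVCAR5 and COLO205 it called 2 lower with median scaling, 1 lower without scaling, and 3 lower and 1 higher with normexp. The shares of all genes called under these settings were not taken, so these counts have no background beside them. Of the single line differences, 33 were no longer called and 154 were. The causes were not tested.

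Across lines, 0 proteasome genes were called under each alternative run, including without cell line as a block, and leaving out each line in turn (0 to 0). The main fit called 0 of all 12187 genes, and the alternatives use the same arrays or fewer. Their zeros are therefore no separate support for a lack of change. Of all counts, these zeros included, 174 stayed the same or within 1.5 times and 15 did not. Other counts of 0 that stayed 0 are also among the 174. Setting PSMB10 aside, or adding PSMC3IP and PSMD6-AS2, chosen after seeing the data, moved no count within a line by more than that. PSMB10 is 1 of the 2 genes called higher in OVCAR5 against each line, so that without it 1 remains in each. With 1 array per line and treatment, differences of dim genes near background are the least certain.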

Other observations

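Over the 31 proteasome genes, the HCT116 imetelstat array was nearest to the COLO205 vehicle array. These arrays differed at least 1.2-fold in 4 genes, with a median absolute log2 difference of 0.089, against 0.146 over all genes. Across detected probes their r was 0.9874, against 0.9867 within HCT116 and 0.9871 within COLO205. The vehicle and imetelstat arrays of HCT116 differed in 13 genes (median 0.217), those of COLO205 in 13 (0.234) and those of OVCAR5 in 7 (0.122). Over all genes these medians were 0.144, 0.164 and 0.138. Pairs of an OVCAR5 array with an array of another line differed in 14 to 23 genes. Their medians were 0.210 to 0.467, against 0.364 to 0.395 over all genes.

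The ratios in different lines were unrelated in size across the proteasome genes: Pearson's r over 30 or 31 genes was -0.09 to 0.00, a description across genes that are not independent replicates. Over all genes r was -0.10 to -0.01, so this is no trait of the proteasome genes. The ratios of PSMC3IP, a recombination factor that shares the letters of the ATPases but is not a subunit, were 0.11 in HCT116, 0.54 in COLO205 and 0.00 in OVCAR5.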
